A study of Homo sapiens with 24 samples.

Results

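The genes described here are 44 genes of DNA replication and S phase, followed across 24 2-color microarrays of human cancer cell lines. They were named by what they are known to do, a rule that uses no value of these arrays but was set with earlier results of these data known. All 44 were among the 19635 genes with a probe on both array designs of the series. Each gene was followed through its brightest probe, and 9 of the 44 had more than 1. Of the 1056 values (44 genes on 24 arrays), 1055 came from probes well above background in both dye channels.

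Each array compared treated cells (Cy5) with control cells of the same line (Cy3), without a dye swap. The value is the log2 ratio of treated over control, with values above 0 higher in treated cells. There were 14 treatments in 7 established lines. Each pairing of line and treatment had 1 array, so an array has no replicate and its values were read by size, at a log2 ratio of 0.5 in either direction. PC3, DU145 and LNCap are prostate cancer lines, A498 and 786O are from renal cell carcinoma, and FaDu and SAS are from squamous carcinoma of the head and neck. The soy isoflavone genistein was given to PC3 and DU145, the plant flavone wogonin to SAS and FaDu, and the chemokine CXCL10 to 786O for 12 h and 24 h. The siRNAs were si-CAV2 in A498 and 786O, si-LAMB3 in FaDu and SAS, and si-GOLM1 in DU145 and PC3. The transfected miRNAs were miR-145 in PC3, DU145 and LNCap, miR-375 in FaDu, miR-23b and miR-24 in PC3, miR-27b in PC3, 786O and A498, miR-29a in SAS, and miR-143 in DU145 and PC3. Controls were cells labeled as not treated for genistein and CXCL10, DMSO for wogonin, a control siRNA for the siRNAs and a control miRNA for the miRNAs. For genistein the study's methods give 25 µmol/L for 4 days against DMSO, which differs from the label. The arrays lay on 3 slides of 8, of which the third had another design, with slide 1 holding genistein, si-CAV2, miR-145 and miR-375, slide 2 si-LAMB3, wogonin, miR-23b, miR-24, miR-27b in PC3 and miR-29a, and slide 3 the rest. Whether miR-23b, miR-24 and miR-27b in PC3 shared 1 control RNA was not stated, so these arrays may not be independent.

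The lines were checked by their markers in the control channel. All 5 prostate luminal markers were above background in LNCap, 4 of 4 renal markers in A498 and 3 of 4 in 786O, and 5 of 5 squamous markers in FaDu and in SAS. Squamous markers were also above background in other lines, 3 of 5 in DU145, 2 of 5 in LNCap and 1 of 5 elsewhere. Their median level was −7.45 in DU145 and −8.60 in LNCap, beside 3.78 in FaDu and 1.96 in SAS. These levels are log2 relative to the 75th percentile of the array. The prostate luminal markers did not set PC3 and DU145 apart, with 2 and 4 of 5 above background on all their arrays beside 3 of 5 in either renal line, so for these 2 lines the prostate origin rests on the labels. The siRNA targets were lower on their arrays, CAV2 at −3.80 in A498 and −3.20 in 786O, GOLM1 at −3.02 in DU145 and −4.15 in PC3, and LAMB3 at −2.50 in FaDu and −0.89 in SAS. The share of spots well above background was 53.2% to 67.6% in Cy3 and 54.2% to 68.9% in Cy5, and the median log2 ratio of all measured genes lay between −0.10 and 0.09 on every array.

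A cell copies its DNA from origins that are licensed in G1, when CDC6 and CDT1 load the ring of MCM2 to MCM7 onto chromatin. At the start of S phase CDC45 and the GINS complex turn the ring into the active helicase, and primase, polymerases, the PCNA clamp and its loaders copy both strands. Cyclin E and the E2F factors drive this entry, and many replication genes are E2F targets, so their transcripts rise together as cells leave G1 and are abundant in proliferating tumor lines. In bulk RNA of this kind, fewer cells in S phase and less RNA of these genes in each cell cannot be told apart.

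Among the treatments were 7 miRNAs, whose mature sequences are shown because the arrays are named for them. A miRNA is guided to its targets mainly by its seed, bases 2 to 8, in capitals below. The labels give no arm, so the sequence is that of the arm to which the bare name commonly refers (RefSeq, GRCh38.p14). No seed was shared between the 7.
miR-145-5p (chr5:149430661-149430683, plus strand): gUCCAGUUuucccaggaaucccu
miR-375-3p (chr2:219001648-219001669, minus strand): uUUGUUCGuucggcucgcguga
miR-23b-3p (chr9:95085265-95085287, plus strand): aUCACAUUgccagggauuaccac
miR-24-3p (chr9:95086064-95086085, plus strand, with a further copy at chr19:13836289-13836310, minus strand): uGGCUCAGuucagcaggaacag
miR-27b-3p (chr9:95085505-95085525, plus strand): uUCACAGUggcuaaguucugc
miR-29a-3p (chr7:130876748-130876769, minus strand): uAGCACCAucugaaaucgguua
miR-143-3p (chr5:149428978-149428998, plus strand): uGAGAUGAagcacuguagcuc

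The promoters of the replication genes carried E2F letters far more often than promoters at large. The motifs searched were TTTGGCGC, TTTCCCGC, TTTCGCGC and TTTGCCGC on both strands, from 250 bases before to 50 bases after the start site, and overlapping matches were counted apart. At least 1 match was present for 21 of the 36 members with a promoter in the RefSeq table used here (58.3%), against 1090 of 27305 genes (3.99%). The letters CCAAT, on either strand, were present for 63.9% of the members and 39.7% of all genes. Among genes of G2 and mitosis the E2F motifs were present for 11.1% and CCAAT for 88.9%, so that the 2 kinds of cell-cycle gene differed in these letters. The E2F motifs were present for 37.9% of the further replication genes and 27.8% of the further RB-E2F and G1 genes described below. A match is a description and not a shown binding site. The 250 bases before the start site are shown for 2 helicase genes, the clamp and the E2F gene itself, 5′ to 3′ on the gene's strand, with the E2F motifs in capitals.
MCM6 (GRCh38.p14 chr2:135876444-135876693, minus strand): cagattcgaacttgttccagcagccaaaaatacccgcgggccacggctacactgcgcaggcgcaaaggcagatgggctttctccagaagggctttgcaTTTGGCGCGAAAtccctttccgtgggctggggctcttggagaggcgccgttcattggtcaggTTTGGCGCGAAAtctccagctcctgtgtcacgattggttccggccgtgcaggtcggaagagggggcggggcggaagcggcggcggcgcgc
MCM3 (GRCh38.p14 chr6:52284743-52284992, minus strand): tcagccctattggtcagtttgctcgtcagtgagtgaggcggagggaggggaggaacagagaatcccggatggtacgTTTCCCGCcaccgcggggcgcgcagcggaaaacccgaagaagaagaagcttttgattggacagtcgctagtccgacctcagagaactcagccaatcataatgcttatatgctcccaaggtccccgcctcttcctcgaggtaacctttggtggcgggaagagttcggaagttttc
PCNA (GRCh38.p14 chr20:5126623-5126872, minus strand): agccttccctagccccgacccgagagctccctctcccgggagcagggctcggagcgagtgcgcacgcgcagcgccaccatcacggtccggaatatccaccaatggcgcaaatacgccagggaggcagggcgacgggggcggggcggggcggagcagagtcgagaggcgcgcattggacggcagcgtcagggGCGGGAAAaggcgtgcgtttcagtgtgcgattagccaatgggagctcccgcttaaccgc
E2F1 (GRCh38.p14 chr20:33686386-33686635, minus strand): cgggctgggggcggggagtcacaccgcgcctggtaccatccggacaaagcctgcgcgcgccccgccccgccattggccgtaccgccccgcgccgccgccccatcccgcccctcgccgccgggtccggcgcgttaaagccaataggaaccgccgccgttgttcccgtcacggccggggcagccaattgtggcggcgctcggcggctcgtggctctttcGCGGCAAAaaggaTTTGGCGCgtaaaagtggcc

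Across the 24 arrays the 44 genes moved most with miR-375 in FaDu, where all 44 lay above 0, and with miR-27b in PC3, where all 44 did so too. They were lowest with genistein in PC3, where 35 of 44 lay below 0, and with miR-145 in LNCap, where 41 did. On the 8 arrays of slide 3 the member median stayed between −0.13 and 0.10.

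**Figure D1:**
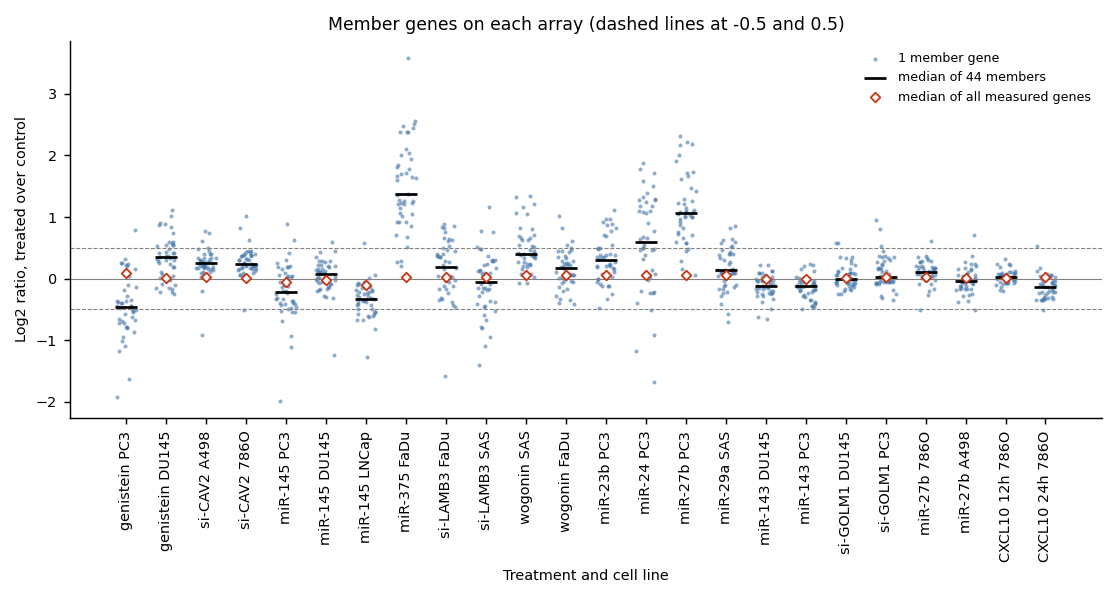
Log2 ratio (treated over control) of the 44 genes on each of the 24 arrays, 1 point for each gene, with the median of the 44 as a black bar and the median of all measured genes as a red diamond. The bars for miR-375 in FaDu (1.37) and miR-27b in PC3 (1.07) stand highest and that for genistein in PC3 (−0.46) lowest, while the diamonds stay between −0.10 and 0.09.

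**Figure D2:**
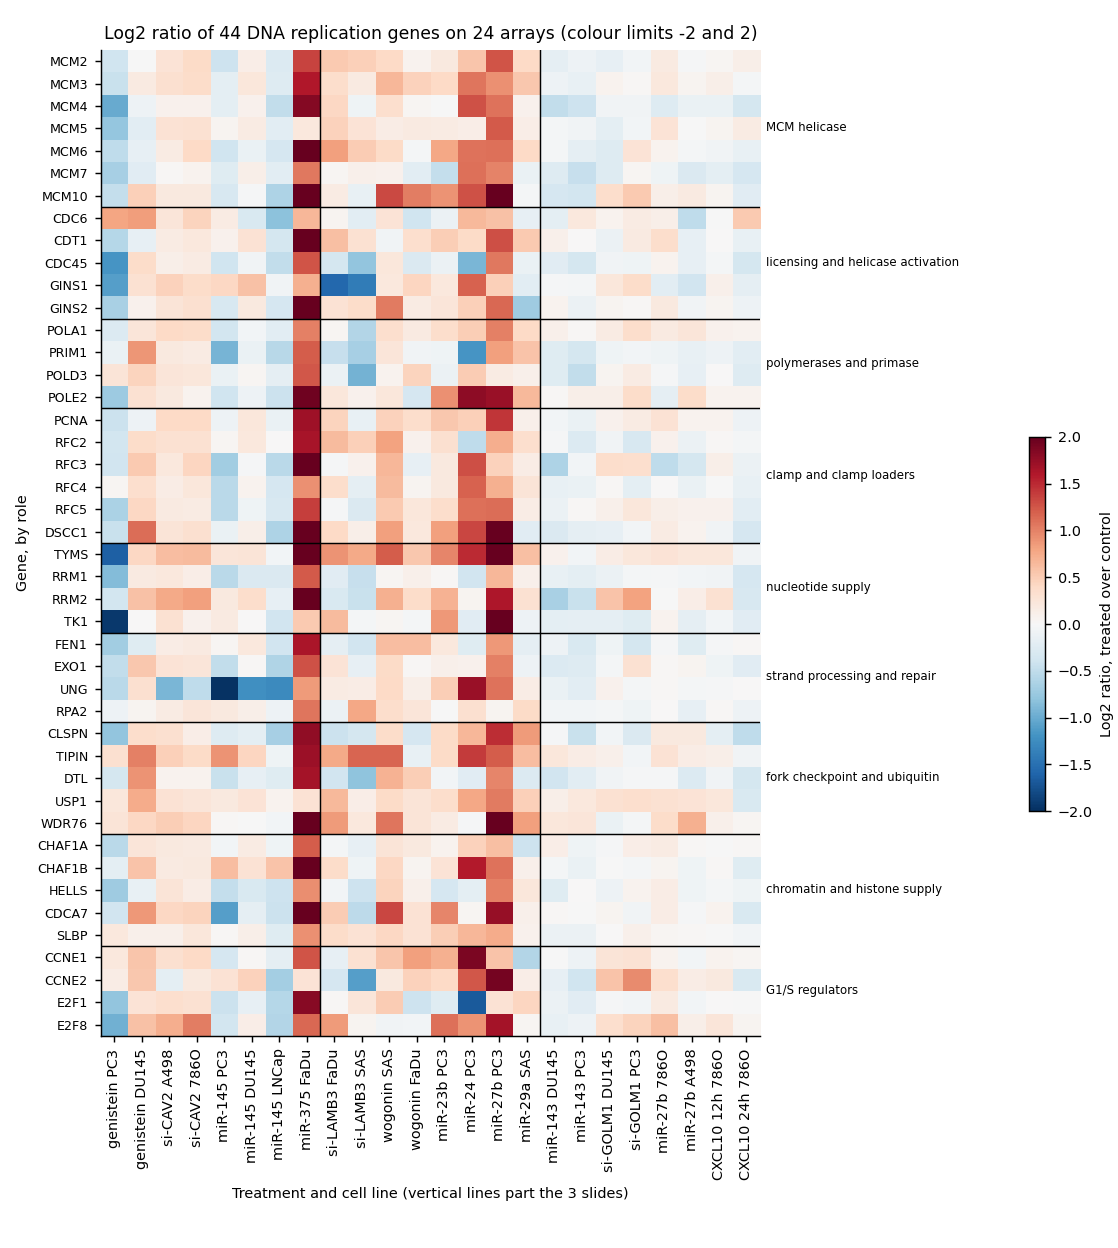
Log2 ratio of each of the 44 genes (rows, grouped by role) on each array (columns, with vertical lines between the 3 slides), from blue (lower in treated cells) to red (higher), with colors ending at −2 and 2. The miR-375 FaDu and miR-27b PC3 columns are red in every role, and single cells such as UNG with miR-145, GINS1 with si-LAMB3 and E2F1 with miR-24 stand apart from the rest of their columns.

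With miR-375 in FaDu the member median was 1.37, a 2.58-fold higher level, and 41 of 44 genes lay above 0.5 and 34 above 1. No member lay below −0.5. Of the 14400 genes measured on this array 25.7% lay above 0.5 and 26.1% below −0.5, so the array as a whole was wide in both directions while the members went one way. CDCA7, which takes part with the chromatin remodeler HELLS in DNA methylation, had the highest value of the whole set at 3.58, a 12.0-fold difference by its brightest probe (hg19 chr2:174233490-174233549), while its other probe gave 2.39. CHAF1B, a subunit of the factor that lays histones on new DNA, was at 2.56, and WDR76, which is linked to ubiquitin ligases, at 2.51, although WDR76 came to 1.48 with another background correction. The 3 genes within 0.5 of the control were USP1, a deubiquitinase that acts on the clamp, at 0.29, CCNE2, a cyclin E, at 0.28, and MCM5 at 0.21. MCM5 so stood well below the other 5 members of its ring, which lay between 1.06 and 2.38. The clamp and clamp loader genes had a median of 1.68, with all 6 above 0.5, and the nucleotide supply genes one of 1.67, with all 4 above 0.5.

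The control channel of this array was itself low in these genes. On a scale on which a gene's mean over the 7 lines is 0, the 44 genes had a median control level of −0.89, whereas the other 2 FaDu controls had medians of 0.34 and 0.28. The treated channel stood at 0.42, beside 0.27 and 0.22 for the other 2 treated FaDu samples. The part of the control in the ratio was not tested.

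In PC3, miR-27b gave a member median of 1.07, a 2.09-fold higher level, with 39 of 44 genes above 0.5, 27 above 1 and none below −0.5. Among all 14331 genes measured there 21% lay above 0.5 and 15.2% below −0.5. TYMS, which makes thymidylate, was highest at 2.32, followed by MCM10, an initiation factor, at 2.22 and TK1, thymidine kinase, at 2.19. MCM10 was at 0.98 with another background correction, so its size depended on the background correction. The least moved were RPA2, a subunit of the protein that coats single strands, at 0.06 and POLD3, a subunit of polymerase delta, at 0.16. All 7 MCM genes lay between 0.92 and 2.22.

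With miR-24 in PC3 the members were split. Their median was 0.60, with 24 above 0.5, 17 above 1 and 4 below −0.5, on an array on which 30% of all genes lay above 0.5 and 24.9% below −0.5. CCNE1, a cyclin E, was highest at 1.88 (3.67-fold), then POLE2, a subunit of polymerase epsilon, at 1.78 and UNG, which removes uracil from DNA, at 1.72. E2F1 was lowest at −1.68, a 3.20-fold lower level, with PRIM1, the catalytic primase subunit, at −1.18, CDC45 at −0.91 and the clamp loader RFC2 at −0.51. Among the ring genes MCM3, MCM4, MCM6 and MCM7 lay between 1.06 and 1.27 on the same array, MCM2 was at 0.55 and MCM5 at 0.13, so the ring lay above 0 while E2F1 and the helicase partner CDC45 lay below it.

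With miR-23b in PC3 the member median was 0.30, with 11 of 44 above 0.5 and none below −0.5, against 18.9% of all genes above and 14.1% below. E2F8, a repressor of E2F targets, was at 1.11, TYMS at 0.97 and CDCA7 at 0.97. The median turned to −0.05, and TYMS to −0.14, when the mean of the other treatments on the slide was subtracted, a mean that the miR-24 and miR-27b arrays raise.

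The 3 controls of miR-23b, miR-24 and miR-27b in PC3 were again low in the 44 genes, with median levels of −1.19, −1.18 and −1.21, beside −0.42 for the control of genistein and 0.32 for that of miR-145 in the same line. The treated channels stood at −1.14, −0.92 and −0.38. The treated miR-27b sample so lay below the treated miR-145 sample of PC3 (−0.11) in level, although its ratio was the higher of the 2. What the low controls add to the ratios was not tested.

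**Figure D3:**
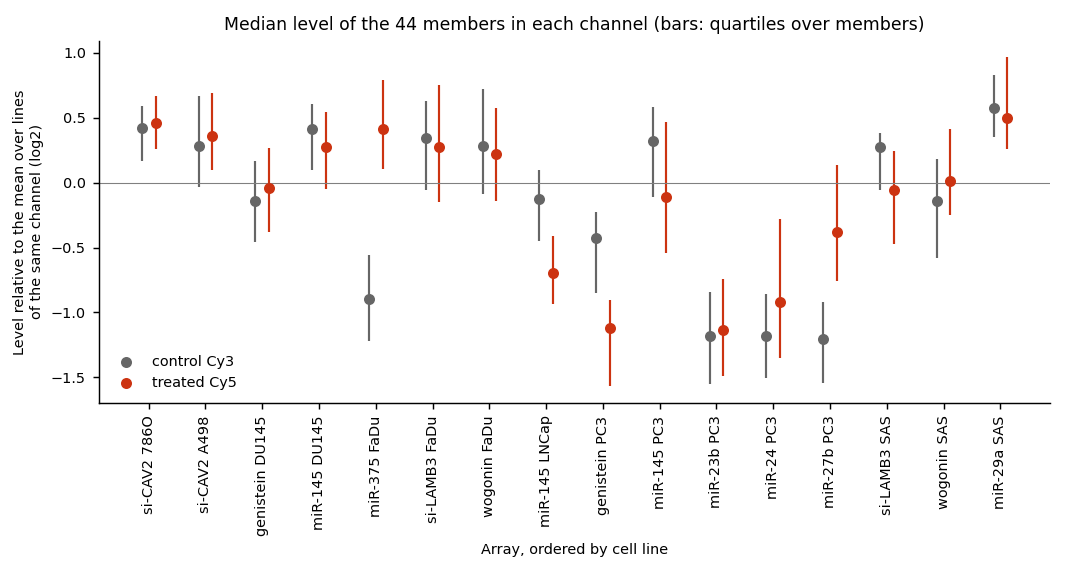
Median level of the 44 genes in the control channel (Cy3, grey) and the treated channel (Cy5, red) of the 16 arrays of design 1, ordered by cell line, as log2 relative to the mean over the 7 lines in the same channel, with bars for the quartiles over genes. The controls of miR-23b, miR-24 and miR-27b in PC3 (−1.19, −1.18 and −1.21) and of miR-375 in FaDu (−0.89) lie lowest, and the remaining controls of PC3 (−0.42 and 0.32) and of FaDu (0.34 and 0.28) lie higher.

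By the deposited ratios genistein gave member medians of opposite sign in its 2 lines. Of the single genes, 26 of 44 differed in sign between the lines, 9 were below 0 in both and 9 above 0 in both. In PC3 the member median was −0.46, with 20 of 44 genes below −0.5, 5 below −1 and 1 above 0.5, against 16.8% of all genes below and 23.9% above. In DU145 it was 0.35, with 14 above 0.5 and none below −0.5, against 18.2% of all genes above and 17.1% below. With the 2 lines averaged the member median was −0.11. It became −0.41 after subtraction of the mean of the other treatments on the slide, a mean that holds miR-375. The median difference between the lines stayed at −0.75 in that setting. Nucleotide supply showed the widest gap between the lines. TK1 was at −1.93 in PC3 (3.80-fold lower) and 0.01 in DU145, and TYMS at −1.63 and 0.42. CDC45 was at −1.18 and 0.36, GINS1, a subunit of the GINS complex, at −1.10 and 0.30, and MCM4 at −1.01 and −0.09. The highest values in DU145 were those of DSCC1, a subunit of an alternative clamp loader, at 1.11, TIPIN, which protects stalled forks, at 1.01 and DTL, which directs CDT1 to destruction, at 0.90. In PC3 DSCC1 and DTL were at −0.44 and −0.35, and TIPIN at 0.32.

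CDC6 was the single member past 0.5 in both lines, at 0.79 in PC3 and 0.83 in DU145. Across both lines limma, with the spread between lines shared over all treatments, called it higher by 0.81 ± 0.25 (SE, 2 lines, adjusted p = 0.0465), as 1 of 44 members with 16.3% of the 14398 genes tested called. At an unadjusted p under 0.05 there were 4 members. CDC6 was dim in the PC3 control, with a software error of 0.449, and limma no longer called it when arrays were centred or the background was corrected in another way.

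The difference between the lines was tested with a contrast added after the values had been seen. In limma 8 of 44 members were lower in PC3 than in DU145 and none higher, against 3.14% of all genes lower, and 24 had an unadjusted p under 0.05. The 8 were TYMS (−2.05 ± 0.28, adjusted p = 0.00247), TK1 (−1.94 ± 0.33, adjusted p = 0.00775), DSCC1 (−1.55), CDC45 (−1.54), GINS1 (−1.40), DTL (−1.25), RRM1, the large subunit of ribonucleotide reductase (−1.05), and the clamp loader RFC5 (−1.04). The median difference over the 44 was −0.75, beside 0.07 over all genes. The count was 16 under normexp or no background correction. All genes called lower then numbered 787 and 826, against 452 with the deposited ratios. Each line had 1 array, so the test took its spread from the lines of the other treatments, and the p-values hold only as far as genistein varies like these. Both arrays lay on slide 1. The control channel stood at −0.42 in PC3 and −0.14 in DU145, and the treated channel at −1.12 and −0.04.

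**Figure D4:**
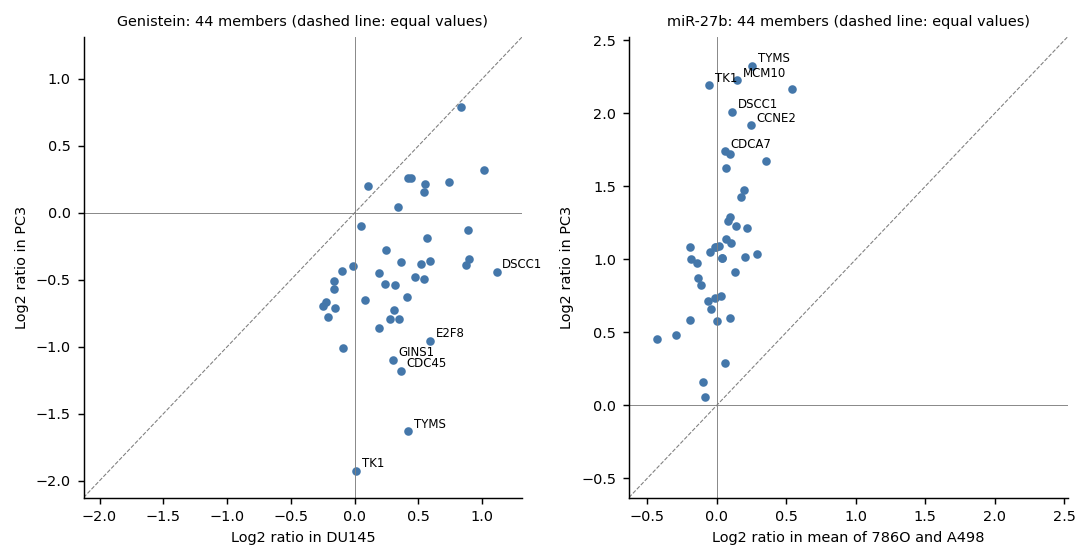
Log2 ratio of each of the 44 genes (points) with genistein in PC3 against DU145 (left) and with miR-27b in PC3 against the mean of 786O and A498 (right), with a dashed line at equal values. All points but that of SLBP lie below the line on the left, where TK1 and TYMS are farthest. All 44 lie above it on the right, where TYMS, MCM10, TK1, WDR76 and DSCC1 lie above 2 in PC3. In 786O and A498 WDR76 was at 0.37 and 0.71, and the other named genes lay between −0.18 and 0.28.

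For miR-27b the renal lines differed from PC3. The member median was 0.10 in 786O and −0.04 in A498, with 1 gene past 0.5 in each direction in either line, against 9.82% and 9.65% of all genes in either direction. E2F8 was highest in 786O at 0.60 and WDR76 in A498 at 0.71, while RFC3 in 786O (−0.50) and CDC6 in A498 (−0.51) were lowest. The same added contrast called 18 of 44 members higher in PC3 than in the renal lines and none lower, against 2.07% of all genes higher, and 39 had an unadjusted p under 0.05. After subtraction of the slide mean the count fell to 6 members, and that of all genes called higher from 298 to 177. Among the 18 were TK1 (2.24 ± 0.29, adjusted p = 0.00478), MCM10 (2.08 ± 0.24, adjusted p = 0.00311), TYMS (2.07 ± 0.25, adjusted p = 0.00339), DSCC1 (1.89), WDR76 (1.63), POLE2 (1.62), RRM2, the small subunit of ribonucleotide reductase (1.56), PCNA (1.25) and MCM2, MCM4, MCM5 and MCM7 (1.09 to 1.28). The PC3 array lay on slide 2 with design 1 and the renal arrays on slide 3 with design 2, so line, slide and design cannot be told apart. With the lines averaged, limma called none of the 44 members, with 1.88% of all genes called, and 16 had an unadjusted p under 0.05. WDR76, positive in all 3 lines (2.17, 0.37 and 0.71), came nearest at 1.08 with an adjusted p of 0.0564.

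UNG stood out with miR-145, though it was also low with some other treatments on the same slide. It was at −1.98 in PC3, −1.23 in DU145 and −1.27 in LNCap, the lowest member on each of the 3 arrays (probe at hg19 chr12:109548738-109548797). Limma called it at −1.50 ± 0.22 (SE, 3 lines, adjusted p = 0.000871), a 2.82-fold fall, as 1 of 44 members with 13.8% of all genes called, and the call held without each line in turn. At an unadjusted p under 0.05 there were 4 members. UNG also lay below −0.5 with si-CAV2 in A498 (−0.92) and 786O (−0.51) and with genistein in PC3 (−0.54). All 6 arrays with such a value lay on slide 1. The other members differed between the lines of miR-145. In PC3 the median was −0.22, with 7 below −0.5 and 2 above 0.5, against 19.4% of all genes below and 17.1% above. CDCA7 (−1.11) and PRIM1 (−0.93) followed UNG there, and TIPIN was highest at 0.89. In LNCap the median was −0.33, with 11 below −0.5 and 1 above, against 11.7% of all genes below and 13.6% above, and CDC6 (−0.81) and CCNE2 (−0.68) followed UNG. CHAF1B was above 0.5 in PC3 (0.62) and LNCap (0.57), values that turned to −0.04 and −0.09 when the mean of the other treatments on the slide was subtracted. In DU145 the median was 0.08, which turned to −0.36 in that setting, with 1 member past 0.5 in each direction, GINS1 being the higher at 0.59, against 16.1% of all genes in either direction.

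GINS1 was low with genistein in PC3 (−1.10) and lower still with si-LAMB3. It was at −1.57 in FaDu and −1.40 in SAS, the lowest member on both arrays (probe at hg19 chr20:25429111-25429170), and limma called it at −1.49 ± 0.27 (SE, 2 lines, adjusted p = 0.00372), a 2.81-fold fall. POLD3 was the other call, at −0.53 ± 0.17 (adjusted p = 0.0487), though with −0.12 in FaDu and −0.95 in SAS it rested mainly on SAS and was lost when probes of a gene were averaged. These were 2 of 44 members with 16.5% of all genes called, 6 members having an unadjusted p under 0.05, and without the SAS array no member was called. GINS2, of the same complex, was at 0.29 in FaDu and 0.36 in SAS. In FaDu the member median was 0.20, with 11 above 0.5 and 1 below −0.5, against 15.3% of all genes above and 14.5% below. In SAS it was −0.06, with 4 above and 8 below, against 20.6% above and 19.7% below. After subtraction of the mean of the other treatments on the slide these medians became −0.25 and −0.54. TYMS, TIPIN and MCM6 lay above 0.5 in both lines, TYMS at 0.89 and 0.75, which turned to −0.30 and −0.44 in that setting. CCNE2 was at −0.33 in FaDu and −1.10 in SAS.

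With wogonin the member median was 0.40 in SAS, with 17 of 44 above 0.5 and none below −0.5, against 20.2% of all genes above and 17.1% below. In FaDu it was 0.17, or −0.20 after subtraction of the slide mean, with 4 above 0.5 and none below −0.5, against 25.2% of all genes in either direction. CCNE1 was at 0.55 in SAS and 0.82 in FaDu, and limma called it higher by 0.69 ± 0.16 (SE, 2 lines, adjusted p = 0.0252), as 1 of 44 members with 8.38% of all genes called and 6 members at an unadjusted p under 0.05. The call was lost when either line was left out. MCM10 (1.33 and 1.02), TYMS (1.21 and 0.54) and the flap nuclease FEN1 (0.62 in both) were the other members past 0.5 in both lines. CDCA7 was high in SAS alone, at 1.34 beside 0.28.

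With si-CAV2 most values were small and above 0. The member median was 0.25 in A498 and 0.24 in 786O, 42 of 44 genes were above 0 in both lines, and 3 lay above 0.5 and 1 below −0.5 in each, against 9.21% and 8.01% of all genes in either direction. The same genes were past 0.5 in both lines, namely E2F8 (0.73 and 1.02), RRM2 (0.77 and 0.82) and TYMS (0.61 and 0.63), with UNG at −0.92 and −0.51, of which the last value turned to 0.13 after subtraction of the slide mean. Limma called none of them, with 0.347% of all genes called and 4 members at an unadjusted p under 0.05.

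With miR-29a in SAS the member median was 0.14, or −0.25 after subtraction of the slide mean, with 8 above 0.5 and 2 below −0.5, against 15.1% of all genes above and 13.2% below. CLSPN, a checkpoint adaptor at the fork, was at 0.85, WDR76 at 0.82 and POLE2 at 0.65, which turned to −0.0088 in that setting. GINS2 was at −0.71 and CCNE1 at −0.58, so cyclin E1 lay lower here and higher with wogonin in the same line.

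The arrays of slide 3 held few members past 0.5. With si-GOLM1 CCNE2 (0.57 in DU145 and 0.95 in PC3) and RRM2 (0.57 and 0.81) were above 0.5 in both lines and MCM10 (0.53) in PC3, on arrays with member medians of −0.0041 and 0.03, where 5.72% and 13% of all genes were past 0.5 in either direction. Limma called none of the members, with 0.333% of all genes called and 1 member at an unadjusted p under 0.05. With miR-143 the medians were −0.12 in DU145 and −0.13 in PC3, with RRM2 (−0.65) and RFC3 (−0.61) past −0.5 in DU145 and no member past 0.5 in PC3, against 8.89% and 9.2% of all genes, and 31 of 44 members were below 0 in both lines. Limma called 0 of 44 at an adjusted p under 0.05 and 0 at an unadjusted one, with 0.0903% of all genes called. With CXCL10 in 786O the median was 0.02 at 12 h, with no member past 0.5, and −0.13 at 24 h, with CLSPN at −0.50 and CDC6 at 0.53, against 5.41% and 6.98% of all genes in either direction.

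Read by role, the ring of MCM2 to MCM7 lay between 0.92 and 1.26 with miR-27b in PC3 and between −1.01 and −0.39 with genistein in PC3, all 6 with the same sign on either array. PCNA lay above 0.5 on 3 arrays, at 1.70 with miR-375 in FaDu and, in PC3, 1.43 with miR-27b and 0.55 with miR-23b. It was at 0.47 with miR-24 in PC3, 0.46 with wogonin in SAS, 0.44 with si-LAMB3 in FaDu and 0.40 in both si-CAV2 lines. Its lowest value was −0.44, with genistein in PC3. Its 24 values had a median of 0.13. Among the G1/S regulators the cyclins and the E2F genes did not move alike. CCNE1 lay above 0.5 on 7 arrays and below −0.5 on 1, and CCNE2 above on 5 and below on 2. The 2 probes of CCNE2 differed by more than 0.5 on 3 arrays. With wogonin in FaDu the probe used gave 0.47 and the other 1.52. E2F8 lay above 0.5 on 9 arrays and below −0.5 on 2, whereas E2F1 lay above on 2 and below on 3. With miR-27b in PC3 E2F8 was at 1.67 and E2F1 at 0.29, and with miR-375 in FaDu E2F1 was at 1.82 and E2F8 at 1.15. Of all 44, TYMS was past 0.5 on the most arrays, above on 11 and below on 1, with a median of 0.35, and RPA2, SLBP (which binds histone mRNA) and USP1 were among the steadiest, with SDs over the arrays of 0.29, 0.29 and 0.26. The remaining members, which are the polymerase alpha subunit POLA1, the loader subunit RFC4, the nuclease EXO1, the histone chaperone subunit CHAF1A and HELLS, had SDs between 0.34 and 0.44, and each was highest with miR-375 in FaDu, miR-24 in PC3 or miR-27b in PC3.

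The members followed each other across arrays. The correlation (Pearson) of a gene with the median of the other members over the 24 arrays ran from 0.410 for CDC6 to 0.953 for DSCC1, with a median of 0.810. Without miR-375 in FaDu and miR-27b in PC3 the median was 0.614 and the lowest value 0.0431, for E2F1. The values are a description, since arrays of a slide or line share their batch and some may share a control.

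The levels in the control channel were described for the 16 arrays of design 1, each gene against itself only. PC3 had the lowest mean level for 30 of the 44 genes, and its median relative level was −0.79 over 5 arrays, beside 0.15 for DU145 (2 arrays), 0.20 for SAS (3), −0.14 for FaDu (3), −0.13 for LNCap (1), 0.28 for A498 (1) and 0.42 for 786O (1). The PC3 controls themselves ran from −1.21 to 0.32. Without the controls of miR-23b, miR-24 and miR-27b, a setting added after the values had been seen, the PC3 level was −0.033, above those of FaDu and LNCap, and PC3 was lowest for 11 genes, so its lowest place rests on those 3 arrays. The FaDu level turned to 0.27 without the control of miR-375. For MCM4 the PC3 controls lay between −2.24 and −0.73 and the SAS controls between 0.98 and 1.58 (log2, relative to the 75th percentile of the array), without overlap. CCNE1 was highest in A498 at 1.06 and lowest in PC3 at −1.57, and the A498 value lay clear of every other line. For E2F1 the line means lay between −1.19 and −0.52 and the arrays of 1 line spread by up to 1.70, so the lines could not be ordered. Over the 44 genes the range between line means was larger than the widest spread within a line for 21. The highest line lay clear of every other for 19 genes and the lowest line for 1. A498, 786O and LNCap had 1 array each, so no spread of their own entered these counts.

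Other genes of the cell cycle were described by lists beside the members. For 35 further replication genes, among them origin recognition, polymerase and ligase subunits, the median followed that of the members, at 0.82 with miR-375 in FaDu (27 above 0.5), 0.75 with miR-27b in PC3 (23 above, 3 below) and −0.64 with genistein in PC3 (20 below, none above). Limma called 3 of the 35 with genistein (DUT, LIG1 and RPA3, lower), 2 with miR-145 (DBF4 and TOPBP1, lower), 4 with si-LAMB3 (3 lower and 1 higher), 2 with wogonin (CDC7 and ORC3, higher) and 1 with miR-27b (ORC5, lower). Beside 16.3%, 13.8%, 16.5%, 8.38% and 1.88% of all genes called with these treatments, such counts show nothing particular to the list. The 21 further genes of the RB-E2F pathway and G1 had medians of 0.66, 0.45 and −0.06 on the same 3 arrays.

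The 23 genes of G2 and mitosis include cyclin B and the mitotic kinases. Their medians lay below those of the replication genes with genistein, miR-145 and wogonin, by a margin that was small with miR-145 in LNCap. The difference between the lists was not tested. With genistein in PC3 all 23 were below −0.5, with a median of −2.67 beside −0.46 for the members, and in DU145 the median was −0.13, with 6 below and 1 above, beside 0.35. Limma called 16 of the 23 lower with genistein and none of the 44 members, against 6.97% of all genes lower. The 1 member called, CDC6, was higher. With miR-145 the mitotic medians were −0.78 in PC3 (18 of 23 below −0.5), −0.38 in DU145 (3 of 23) and −0.40 in LNCap (6 of 23), beside −0.22, 0.08 and −0.33 for the members. With wogonin they were −0.00046 in SAS and 0.02 in FaDu, beside 0.40 and 0.17 for the members. With miR-375 in FaDu the order was the other way, 0.75 for mitosis and 1.37 for the members, and with miR-27b in PC3 both stood alike, at 1.04 (23 of 23 above 0.5) and 1.07.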

How the data were processed

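On each of 24 Agilent arrays RNA of a treated and of a control culture was hybridized as a pair, 16 of design 1 and 8 of design 2. Per the submitters' processing notes and the file headers, the authors used Agilent Feature Extraction 10.7.3.1 with its spatial, background and dye corrections and an annotation on hg19. The authors deposited a log10 ratio of Cy5 over Cy3 for each spot, which was multiplied to log2, and the intensity of each channel, raw and processed. The authors' value tables held the same log10 ratios (largest difference 0).

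Control spots and outlier spots were left out (419 to 614 outlier spots for each array, 0 saturated), and spots of 1 probe were averaged. Of the 35649 probes on both designs, 27369 were matched to 19635 genes of NCBI RefSeq GRCh38.p14, used for names and sequences only. The brightest probe stood for a gene, and a ratio was used where the probe was well above background in at least 1 channel. The number of arrays, and not a count of reads, limits the precision.

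Limma 3.58.1 (R 4.3.3) fitted all 24 arrays with 1 coefficient for each treatment and tested the mean over lines against 0 for 14398 genes well above background on at least 12 arrays, with Benjamini-Hochberg adjustment and a threshold of 0.05. Lines were the repeats, so the p-values measure the spread between lines, shared over treatments and with 10 residual degrees of freedom. The test of the difference between lines of a treatment (8 residual degrees of freedom) was added after the values had been seen. Control levels are log2 of the processed Cy3 signal less the array's 75th percentile over 17044 probes. The fit by treatment was also run on simulated independent values, with changes set in si-CAV2 or miR-145 only. These values held no slide, line or shared-control structure, so the run cannot tell how such dependence affects the calls. The difference between lines was not simulated. Python 3.11.15 and pandas 2.3.3 served for the rest.

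The alternatives centred each array, corrected the background by normexp (offset 50) or not at all with loess, averaged probes, used both channels for the filter or no filter, subtracted the slide mean of the other treatments, fitted the designs apart, doubled the size limit to 1 or left out a line. All 44 members could be named. Values were given for up to 3 lowest and 3 highest members past 0.5 on an array, for members called by limma, for the cyclin E, E2F, MCM2 to MCM7 and PCNA genes and for siRNA targets. Others named for a small count or a contrast with these were chosen after their values were seen. The members and lists were chosen with earlier results of these data known. The software's p-values were not used here.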

Additional observations from a re-analysis of the deposited data

Results flagged for a closer look

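With genistein the values of the members stood apart between its 2 lines. Limma called 8 of the 44 lower in PC3 than in DU145, by a test of the difference itself, in which each line had 1 array and the spread came from the lines of other treatments, some of them mild, and which was added because the difference had been seen. The count was 16 with normexp or no background correction, while all genes called lower rose from 452 to 787 and 826. A median difference of −0.75 and the same sign for 43 of 44 members went with it.

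With miR-27b the values of the members stood apart between PC3 and the renal lines. The same kind of test, added for the same reason, called 18 of the 44 higher in PC3 than in the mean of 786O and A498, and all 44 differences were above 0. The count fell to 6 after subtraction of the slide mean, while all genes called higher fell from 298 to 177. Slide and array design differed between these arrays as well and cannot be told apart from the line.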

How the results depend on the processing

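Each array's member median was recomputed in 6 other settings. Centring each array, normexp or no background correction with loess, averaging probes and requiring both channels moved all 24 medians by less than the pooled SD between lines (0.346), with shifts from −0.19 to 0.14. Subtracting the slide mean of the other treatments shifted medians by −0.48 to 0.11 and moved 8 past that SD, to −0.61, −0.36 and −0.68 for miR-145 in PC3, DU145 and LNCap, −0.25 and −0.54 for si-LAMB3 in FaDu and SAS, −0.20 for wogonin in FaDu, −0.048 for miR-23b and −0.25 for miR-29a. In the same setting UNG with si-CAV2 in 786O became 0.13, CHAF1B with miR-145 −0.042 in PC3 and −0.090 in LNCap, TYMS −0.30 and −0.44 with si-LAMB3 in FaDu and SAS and −0.14 with miR-23b, and POLE2 with miR-29a −0.0088. By construction the mean holds miR-375 on slide 1 and miR-24 and miR-27b on slide 2, where members were high. The siRNA targets came to −3.70 for CAV2 in 786O with probes averaged and −3.24 for GOLM1 in PC3 with normexp. With genistein limma called 0 members when arrays were centred, with normexp, with no background correction, with no filter on dim probes and with designs apart, and 11 after subtraction of the slide mean. Of these 11 members 10 were lower. In that setting it called 24 with miR-145, 10 with si-LAMB3 and 3 with wogonin. All genes called there numbered 3551 with genistein, 3979 with miR-145, 2264 with si-LAMB3 and 3112 with wogonin. Without that subtraction they numbered 2347, 1988, 2376 and 1206. Calls over all genes thus rose with genistein, miR-145 and wogonin. With si-LAMB3 they fell, while members called rose from 2 to 10. Why the member counts rose was not tested. Limma called 1 with si-LAMB3 when probes were averaged or no filter was set, and 2 with wogonin under normexp or no background correction. Leaving out a line gave 0 to 4 members for genistein (0 without PC3, 4 without DU145), 0 to 3 for si-LAMB3 (0 without SAS), 0 for wogonin without either line and 0 to 1 for miR-27b (1, WDR76, without 786O). A lone line was assumed to vary like the others. The difference between lines gave 16 members for genistein under normexp and under no background correction, and 6 for miR-27b after subtraction of the slide mean. All genes called lower for genistein rose from 452 to 787 and 826. Those called higher for miR-27b fell from 298 to 177. The cause was not tested. Control levels of the 7 lines moved by less than the spread between arrays of a line under median scaling and normexp, and that of PC3 rose to −0.033 without the controls of miR-23b, miR-24 and miR-27b. No paired analysis was possible because each line and treatment had 1 array, on which treated and control cells were already compared. Signal over background limits single values, as for CDC6, MCM10 and WDR76 above, which moved with the background correction.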
